A study of Homo sapiens with 16 samples.

Results

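The genes of HLA class I antigen presentation were followed in MCF10HER2 cells over 45 h of treatment with an inhibitor of HER2. The group was chosen by name and comprised 9 genes. They were the heavy chains HLA-B, HLA-C, HLA-E and HLA-F, their common light chain B2M, the peptide transporter subunit TAP1, the loading chaperone TAPBP, and the immunoproteasome subunits PSMB8 and PSMB9. Every probe whose gene symbol matched one of these names was taken, which gave 12 of the 20589 probes of the array. All 12 were detected on at least 3 arrays and were among the 12321 probes tested. TAPBP had 3 probes, PSMB8 had 2, and each of the other genes had 1.

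MCF10HER2 is a line made from MCF10A, a nontransformed human breast epithelial line, by transduction with the receptor tyrosine kinase HER2, which it over expresses stably. Whether it is 1 clone is not given in the sources used here. The cells grew without serum or insulin in Ham's F-12 medium with EGF at 10 ng/ml and hydrocortisone, and the study asked which of their transcripts are regulated by HER2. CP724,714, a small molecule that blocks the HER2 kinase, was added at 1 µM with fresh medium, and parallel cultures were lysed every 3 h from 0 to 45 h. The 0 h culture was the only untreated one and the other 15 were treated. With 1 array per time point, precision is limited by how many arrays there are, and a spread can be estimated only from the scatter about a curve in time. The effects of the inhibitor, of the fresh medium and of time in culture cannot be told apart.

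Class I molecules show fragments of the proteins made inside a cell to CD8 T cells and to natural killer cells. Proteasomes cut the proteins, and the immunoproteasome is the form in which PSMB8, PSMB9 and PSMB10 replace the catalytic subunits of the standard particle. TAP1 and TAP2 carry the peptides into the endoplasmic reticulum, where TAPBP, also called tapasin, holds the empty heavy chain and B2M at the transporter until a peptide is bound. HLA-B and HLA-C are highly variable chains that present peptides to T cells, HLA-E mainly presents leader peptides of other class I chains to receptors of natural killer cells, and HLA-F is a less variable chain whose role is less well known. Most of these genes are induced by interferons through NLRC5, IRF and STAT factors.

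Of the 9 genes, 8 lie on chromosome 6 and B2M lies on chromosome 15. Promoter sequence from RefSeq (GRCh38.p14) was found for 8 of the 9 genes, all but HLA-E, in 10 windows. The 250 bases before the start of 5 genes are shown, 5′ to 3′ on the strand of the gene, because HLA-B, HLA-C and HLA-F differed in their time courses and share most of this sequence. The windows are chr6:31357180-31357429 on the minus strand for HLA-B, chr6:31272093-31272342 on the minus strand for HLA-C, chr6:29723184-29723433 on the plus strand for HLA-F, chr15:44711267-44711516 on the plus strand for B2M and chr6:32853705-32853954 on the minus strand for TAP1, whose other window lies downstream. HLA genes vary between people, and these are reference letters that were not read from the cells. Capitals mark matches, on either strand, to 5 motifs.
HLA-B: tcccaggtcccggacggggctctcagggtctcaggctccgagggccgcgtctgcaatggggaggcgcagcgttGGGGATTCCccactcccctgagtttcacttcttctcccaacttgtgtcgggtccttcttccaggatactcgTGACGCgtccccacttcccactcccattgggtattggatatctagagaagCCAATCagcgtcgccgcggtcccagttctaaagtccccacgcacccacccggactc
HLA-C: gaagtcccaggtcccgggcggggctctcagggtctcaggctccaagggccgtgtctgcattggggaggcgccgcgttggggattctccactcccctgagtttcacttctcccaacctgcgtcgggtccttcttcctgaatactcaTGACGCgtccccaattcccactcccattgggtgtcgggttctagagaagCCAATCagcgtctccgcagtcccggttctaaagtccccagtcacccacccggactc
HLA-F: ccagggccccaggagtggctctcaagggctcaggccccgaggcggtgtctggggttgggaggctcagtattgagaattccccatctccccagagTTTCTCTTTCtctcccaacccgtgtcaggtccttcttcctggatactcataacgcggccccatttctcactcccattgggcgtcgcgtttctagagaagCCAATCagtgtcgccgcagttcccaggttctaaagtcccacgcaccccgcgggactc
B2M: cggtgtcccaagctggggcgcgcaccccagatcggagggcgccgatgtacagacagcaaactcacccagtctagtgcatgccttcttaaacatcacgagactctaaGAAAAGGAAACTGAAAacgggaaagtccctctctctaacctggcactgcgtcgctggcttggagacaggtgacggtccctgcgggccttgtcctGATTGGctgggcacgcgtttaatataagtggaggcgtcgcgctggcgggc
TAP1: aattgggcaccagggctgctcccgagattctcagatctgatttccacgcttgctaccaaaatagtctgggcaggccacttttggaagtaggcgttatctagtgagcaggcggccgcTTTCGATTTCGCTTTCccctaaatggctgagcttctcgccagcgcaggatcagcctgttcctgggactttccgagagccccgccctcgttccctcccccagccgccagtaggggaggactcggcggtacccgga
The motifs were GAAANNGAAA, the core of the interferon-stimulated response element (ISRE), TTCNNNGAA, the interferon gamma-activated site called GAS, GGGNNTTCC, a kappa B site, TGACGC, part of the X2 box of class I promoters, and GATTGG, the Y box, where N is any base. They were held by 3.02%, 6.57%, 5.78%, 7.67% and 14.1% of 35116 promoter windows of the same length. The windows of HLA-B and HLA-C were identical at 226 of 254 aligned columns, or 89.0%, and that of HLA-F matched HLA-B at 80.4% and HLA-C at 78.7%. A Y box stood 56 to 51 bases before the start of HLA-B and HLA-C and 57 to 52 bases before that of HLA-F, and B2M held one 50 to 45 bases before its start. TGACGC stood 106 to 101 bases before the start of HLA-B and 105 to 100 before that of HLA-C, and the kappa B letters were matched in HLA-B alone among these 5 windows. ISRE cores lay 156 to 147 bases before the start of HLA-F, as an overlapping pair 144 to 129 bases before that of B2M and as another overlapping pair 134 to 119 bases before that of TAP1. Of the windows not shown, TAPBP held an overlapping pair of ISRE cores 20 to 5 bases before its start and a kappa B match, a window of PSMB8 held GAS and kappa B matches, the second TAP1 window held a GAS match, and PSMB9, which starts 488 bases from TAP1 on the other strand, held none. A match describes the letters of a window and does not show that a factor binds there. Each motif was sought only in the letters given, so a window without a match may hold another form of the same site.

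Values are log2 signals after background correction and quantile normalization. Between 10363 and 11436 probes were detected on an array. The background was 135.9 to 148.9 intensity units on the 8 arrays from 0 to 21 h and 164.5 to 173.9 on the 8 arrays from 24 to 45 h, and the labels name no chip. These 2 sets of arrays and time cannot be told apart at the step from 21 to 24 h, so results are also given within each set. The 9 h and 18 h arrays were the dimmest, with upper quartiles of 397 and 418 intensity units. Of 13 epithelial marker genes, 11 were tested, and the log2 of their summed signals stayed between 16.64 and 17.02. The brightest probes, such as KRT5 (14.51 to 15.19), weigh most in that sum. Of the 11 genes, 10 were time-dependent, in both directions. By 45 h KRT17 stood 15.1-fold above its untreated level and SFN 2.70-fold below. CLDN1 fell from 12.11 at 0 h to 10.67 by 21 h and was back at 11.99 by 45 h. Of 14 leukocyte markers 6 were tested, with a summed signal of 10.58 to 10.69, and CD3D, CD3E, MS4A1 and TYROBP were too rarely detected to be tested. PTPRC, CD2, LYZ and LST1 were detected on 7, 5, 4 and 4 arrays, with log2 signals of 7.90 to 8.01. These are close to background, so much of the leukocyte sum is background. CD14 was detected on all 16 arrays and rose (0.31, SE 0.08, adjusted p = 0.00935 in limma), and CORO1A was detected on all 16 as well (-0.02, SE 0.05, adjusted p = 0.833). Their part in the results was not tested. The 2 ERBB2 probes were detected on 1 and 7 of the 16 arrays, so the arrays do not show the over expression of HER2 by its level, and whether these probes lie in the transduced sequence was not tested.

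Time mattered for 7 of the 12 member probes, those of HLA-B, HLA-E, HLA-F, B2M and TAP1 and both of PSMB8, in a limma F-test of a spline with 4 degrees of freedom (Benjamini-Hochberg adjusted p under 0.05 over all 12321 probes). Of all tested probes 41.9% passed the same test. A straight line in time gave a direction to 4 of the 12. HLA-B, HLA-E and 1 probe of PSMB8 rose, against 12.9% of all probes, and TAP1 fell, against 11.5%. The members did not share a time course. HLA-E and HLA-F rose within the first 9 h and stayed high, HLA-B stepped up after 33 h together with B2M, PSMB8 dipped and had risen by 12 h, TAP1 peaked at 6 to 9 h and then fell, and for HLA-C and TAPBP no change passed a test apart from a small one of slope in a dim TAPBP probe. In a culture, fewer cells that express a gene and less of its RNA per cell cannot be told apart.

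**Figure D1:**
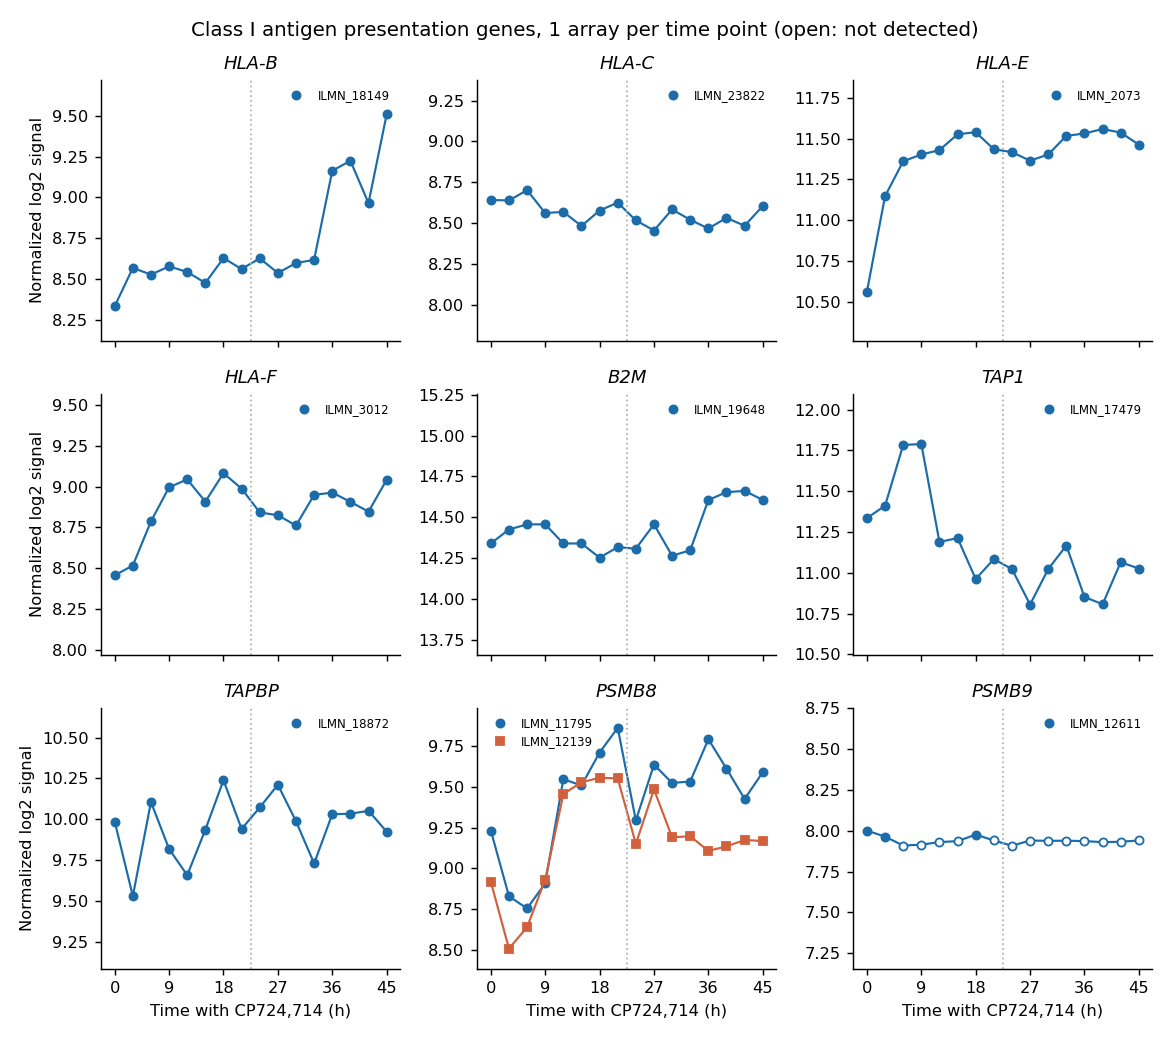
Normalized log2 signal (y axis) of the 9 genes against hours with CP724,714 (x axis), 1 array per point, with 2 probes for PSMB8 and the brightest of 3 for TAPBP. Each panel spans 1.6 log2 units, open symbols mark arrays on which the probe was not detected, and the dotted line separates the arrays up to 21 h from those after; HLA-E leaves its 10.56 at 0 h at once, whereas HLA-B moves from 8.62 at 33 h to 9.16 at 36 h.

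HLA-E rose early and stayed high. Its log2 signal was lowest at 0 h, at 10.56, with a median of 11.43 and a highest value of 11.56 at 39 h. It had reached 11.15 by 3 h, 11.36 by 6 h and 11.40 by 9 h, so that most of the rise had taken place by 6 h. All 15 treated arrays lay above the untreated one, and the 14 arrays from 6 h onward lay at least 1.7-fold above it, the size of change by which the study selected genes. The treated arrays as a group were 0.88 log2 units higher (SE 0.12, 1.84-fold, adjusted p = 5.24e-05 in limma). That comparison sets 15 treated arrays with a spline of time against the lone untreated array, which is assumed to vary like the others. It called 3 of the 12 member probes, HLA-E and HLA-F higher and PSMB9 lower, against 8.62% of all probes higher and 10.3% lower. The call held without any 1 treated array, with adjusted p between 1.46e-05 and 0.00015. From 24 to 45 h the signal stayed between 11.36 and 11.56, and its linear rise over the whole course of 0.47 (SE 0.16, adjusted p = 0.0431 in limma) became 0.22 (adjusted p = 0.195) without the 0 h array.

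HLA-F followed with a smaller rise. Its lowest log2 signal was 8.46 at 0 h, its median 8.91 and its highest 9.08 at 18 h. It climbed through 8.52, 8.79 and 8.996 over the first 9 h and later lay between 8.76 and 9.08. All 15 treated arrays were above 0 h. The treated arrays were 0.44 log2 units higher as a group (SE 0.12, 1.36-fold, adjusted p = 0.0169 in limma), and no time point reached 1.7-fold, the largest fold being 1.54. With the arrays scaled to the median of all probes of the table the difference was 0.48 and missed the threshold (adjusted p = 0.0584 in limma). The profiles of HLA-E and HLA-F had a Pearson r of 0.805 over the 16 arrays, 0.857 over the arrays from 0 to 21 h and 0.499 over those from 24 to 45 h. Arrays of 1 time course are not independent, so these correlations are descriptions.

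HLA-B kept a low level for most of the course and then stepped up. Its log2 signal was 8.33 at 0 h, the lowest, and lay between 8.48 and 8.63 on all 11 arrays from 3 to 33 h. The last 4 arrays, from 36 to 45 h, read 9.16, 9.22, 8.97 and 9.51 in turn. The lowest of these 4 was above the highest of the 12 before them. The 45 h value was 2.26-fold that at 0 h, and 3 time points, at 36, 39 and 45 h, passed 1.7-fold. With HLA-E, HLA-B made 2 of 12 probes that were 1.7-fold higher at some time point, against 10.9% of all probes, and no member was 1.7-fold lower, against 9.47%.

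The step was measured within the later set of arrays, in a comparison of 36 to 45 h with 24 to 33 h that was chosen after the values were seen. HLA-B averaged 8.60 ± 0.04 (SD of 4 time points) from 24 to 33 h and 9.22 ± 0.22 (SD of 4 time points) from 36 to 45 h. The difference was 0.62 (SE 0.09, 1.54-fold, adjusted p = 3.59e-05 in limma). Without any 1 array it lay between 0.52 and 0.70. B2M was the only other member that differed, and 16.0% of all probes were higher and 15.9% lower in this comparison.

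B2M, the light chain without which classical class I molecules do not reach the cell surface, is one of the brighter probes, with intensities of 13408 to 28568. Its log2 signal was lowest at 18 h, at 14.25, with a median of 14.38 and a highest value of 14.66 at 42 h. From 0 to 33 h it stayed between 14.25 and 14.46, and from 36 to 45 h it read 14.61, 14.65, 14.66 and 14.61. Some of its values are equal because quantile normalization gives probes of the same rank the same value. The 4 late arrays were above all 12 earlier ones. B2M was 0.30 higher from 36 to 45 h than from 24 to 33 h (SE 0.05, 1.23-fold, adjusted p = 9.34e-05 in limma), and without any 1 array the difference lay between 0.28 and 0.34. Over the whole course its linear change of 0.23 (SE 0.10) missed the threshold, with an adjusted p of 0.0945 in limma. HLA-B and B2M had a Pearson r of 0.804 over the arrays from 24 to 45 h and -0.0015 over those from 0 to 21 h.

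HLA-C did not take part in either rise. Its log2 signal lay between 8.45 at 27 h and 8.70 at 6 h, with a median of 8.56 and 8.64 at 0 h. On 14 of the 15 treated arrays it was below the untreated array, by at most 1.14-fold. The linear change was -0.12 (SE 0.07, adjusted p = 0.227) and the difference of the treated arrays from the untreated one -0.09 (SE 0.08, adjusted p = 0.537), neither past the threshold in limma. From 24 to 33 h to 36 to 45 h, when HLA-B rose by 0.62, HLA-C moved by 0.00 (SE 0.05). The difference between the genes was not tested, since the 2 values come from separate probes. Class I heavy chain genes are very alike in sequence, and how far the probes of one chain take up RNA of another was not tested.

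Among class I-like chains that serve as stress signals, 3 fell. MICB, a ligand of the activating receptor NKG2D of natural killer cells, had a log2 signal of 10.25 at 0 h, a highest value of 10.77 at 3 h, a median of 9.64 and a lowest value of 9.03 at 36 h. Its linear change was -1.29 (SE 0.18, adjusted p = 6.03e-05 in limma), and 14 of 15 treated arrays were below 0 h. The other NKG2D ligands of the list are given here after their values were seen, and of these ULBP3 passed no test (linear change -0.03, SE 0.03, adjusted p = 0.521 in limma) and ULBP1 was not detected. MICA fell from 12.23 at 0 h to 11.19 at 12 h and stayed between 11.14 and 11.47 thereafter (treated against untreated -0.78, SE 0.14, adjusted p = 0.00102 in limma). ULBP2, detected on 13 arrays, read 8.21 at 0 h and 7.94 at 45 h. Of 15 other class I and class I-like genes 8 were tested, of which 2 rose and 3 fell, and those that fell were all NKG2D ligands. Their median linear change was -0.13, against 0.00 over all tested probes.

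**Figure D2:**
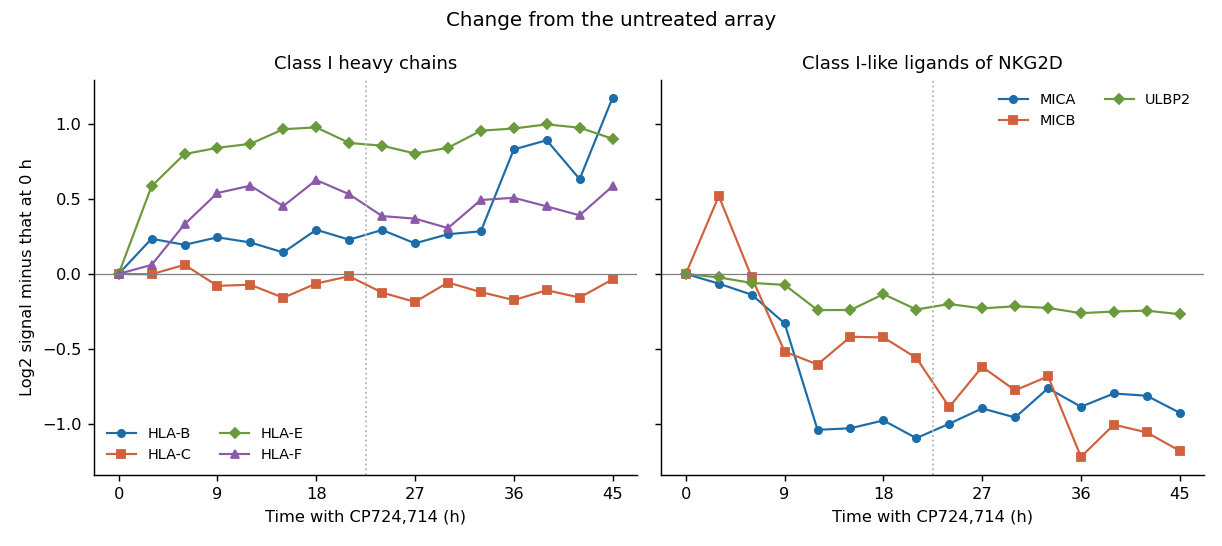
Log2 signal minus that of the untreated 0 h array (y axis) against hours with CP724,714 (x axis), 1 array per point, for 4 class I heavy chains on the left and 3 ligands of NKG2D on the right; the dotted line separates the arrays up to 21 h from those after. HLA-E and HLA-F rise early, HLA-B has its highest values from 36 h on, HLA-C stays near 0, and MICA and MICB end below the untreated array.

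TAP1, the transporter subunit, rose briefly and then fell. It started from a log2 signal of 11.34 at 0 h, was highest at 6 and 9 h, with 11.78 and 11.79, and lowest at 27 h, with 10.81 and a median of 11.07. All 12 arrays from 12 h onward were below the untreated array. The linear change was -0.66 (SE 0.18, adjusted p = 0.0113 in limma). TAP1 was 1.37-fold above 0 h at its peak and 1.44-fold below it at its lowest. The fall lay in the step from 9 to 12 h, from 11.79 to 11.19. Within the arrays from 24 to 45 h its values ranged from 10.81 to 11.17, with a slope of 0.03 per 21 h. The fall depended on the scaling of the arrays: when medians were scaled and quantiles were not matched it was -0.41 (adjusted p = 0.0938 in limma), which misses the threshold.

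TAPBP was represented by 1 bright and 2 dim probes. The bright probe, detected on all 16 arrays, ranged from 9.53 at 3 h to 10.24 at 18 h, with a median of 9.99 and 9.98 at 0 h. Its values scattered about the curve with an SD of 0.19, and its linear change was 0.17 (SE 0.16, adjusted p = 0.487 in limma). The dim probes were detected on 14 and 5 arrays, stayed between 7.92 and 8.07, and had Pearson r values of 0.25 and -0.47 with the bright one.

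PSMB8, the inducible beta5i subunit, went through a dip before it rose, in both of its probes. The brighter probe (ILMN_11795) went from 9.23 at 0 h down to its lowest value, 8.75, at 6 h, was still at 8.91 by 9 h, and then rose to 9.55 by 12 h and to its highest, 9.86, by 21 h, with a median of 9.53. The other probe (ILMN_12139) went from 8.92 at 0 h to its lowest value, 8.51, by 3 h, was back at 8.93 by 9 h and rose to 9.45 by 12 h, with its highest value of 9.55 at 18 h and a median of 9.17. From 3 to 21 h the signal thus rose 2.04-fold in the one and 2.06-fold in the other. Time dependence passed the threshold for both, with adjusted p of 0.0259 and 0.0108 in limma. The probes ran together up to 21 h, with a Pearson r of 0.945 over 8 arrays, and hardly after, with 0.107 over the next 8. From 36 to 45 h the brighter probe averaged 9.60 ± 0.15 (SD of 4 time points), above the 9.23 of the untreated array. The other averaged 9.15 ± 0.03 (SD of 4 time points), against 8.92 at 0 h. A linear rise was called for the brighter probe alone, 0.65 (SE 0.21, adjusted p = 0.0288 in limma), against 0.34 (SE 0.23, adjusted p = 0.313) for the other. The call was lost without the 3, 6, 9 or 36 h array (adjusted p up to 0.0847) and with the set of arrays as a block (1.18, adjusted p = 0.0947).

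TAP1 and PSMB8 are neighbours on chromosome 6, and TAP1 ran opposite to the brighter PSMB8 probe. The other PSMB8 probe was not compared with TAP1. Over the arrays from 0 to 21 h the Pearson r between TAP1 and the brighter PSMB8 probe was -0.896, from 24 to 45 h it was -0.585, and over all 16 it was -0.853. When TAP1 was highest, at 6 and 9 h, PSMB8 read 8.75 and 8.91, and when TAP1 dropped between 9 and 12 h, PSMB8 rose from 8.91 to 9.55. Of the 28 pairs among the 8 genes with a probe detected on all arrays, this one had the most negative r over 16 arrays, 8 pairs were positive in both sets of arrays and 6 were negative in both. Up to 21 h B2M, on chromosome 15, was as opposed to the same PSMB8 probe (-0.907) and ran with TAP1 (0.950). From 24 to 45 h these values were 0.420 and -0.448.

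PSMB9, the beta1i subunit, was at the limit of detection. It was detected on the arrays at 0, 3 and 18 h only, with log2 signals of 8.001, 7.96 and 7.98, and the other 13 arrays lay between 7.91 and 7.94. The untreated array was at least 1.05-fold above the mean of those 13, counted from the weakest signal that was detected on each array. PSMB9 was tested only through these 3 arrays, the fewest allowed, and they hold its 3 highest signals, with the untreated array the highest. The call of the treated arrays as lower in limma (-0.06, SE 0.02, adjusted p = 0.0409) is thus not independent of the detection filter. No order of the time points is read from values this close to background.

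Slopes early and late in the course were compared directly, as log2 change per 21 h within the arrays up to 21 h and within those from 24 h. They differed for 4 of the 12 probes, against 24.8% of all probes. HLA-B went from 0.14 to 0.89 (difference 0.75, SE 0.23, adjusted p = 0.0236 in limma) and B2M from -0.12 to 0.38 (difference 0.51, SE 0.14, adjusted p = 0.0166). The PSMB8 probe ILMN_12139 went from 1.07 to -0.14 (difference -1.21, SE 0.28, adjusted p = 0.00619). The fourth was a dim TAPBP probe (ILMN_26682), with 0.10 and -0.01. HLA-E had 0.72 and 0.14 and HLA-F 0.58 and 0.16, differences that missed the threshold with adjusted p of 0.109 and 0.129. Because each of these spans was also 1 set of arrays, a change of slope with time and one with the set of arrays cannot be told apart.

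**Figure D3:**
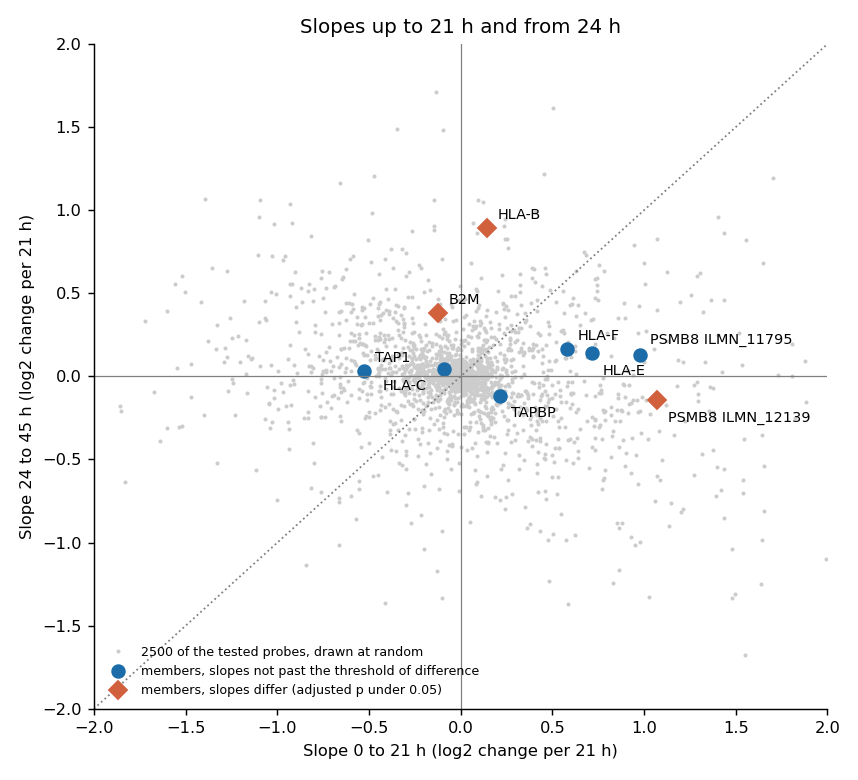
Slope from 0 to 21 h (x axis) against slope from 24 to 45 h (y axis), both as log2 change per 21 h, for the 9 member probes detected on all 16 arrays and for 2500 of the tested probes drawn at random (grey). HLA-B and B2M lie above the dotted line of equal slopes, HLA-E, HLA-F and PSMB8 lie to the right with slopes near 0 from 24 h on, and diamonds mark probes whose slopes differed in limma.

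Other genes of the pathway were taken from lists drawn up from general knowledge, with 1 probe per gene. In peptide loading and trimming, 9 of 12 genes were tested, 1 rose and 2 fell over the course, with a median linear change of -0.03. Those that fell were calreticulin (CALR, -0.78, SE 0.14, adjusted p = 0.000409 in limma) and calnexin (CANX, -0.71, SE 0.21, adjusted p = 0.0193 in limma), lectin chaperones that fold the heavy chain. TAP2, the partner of TAP1, was looked up after the values were seen and read 8.58 at 0 h and 8.64 at 45 h, with a highest value of 9.09. Its linear change was 0.03 (SE 0.17, adjusted p = 0.914 in limma), but the level was not constant. TAP2 passed the spline test (adjusted p = 0.00968 in limma) and read 8.51 at 9 h and 9.02 at 21 h. Its slope per 21 h was 0.56 up to 21 h and -0.45 from 24 h, a difference past the threshold (adjusted p = 0.00349 in limma).

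Among 5 partners of the immunoproteasome, all tested, 1 rose and 2 fell. PSME1, a subunit of the PA28 activator, rose by 0.56 (SE 0.09, adjusted p = 0.000318 in limma). POMP, the assembly chaperone of the proteasome, had a change of -0.66 (SE 0.09, adjusted p = 7.96e-05 in limma), and PSMB10, the third catalytic subunit, one of -0.42 (SE 0.12, adjusted p = 0.0176). Of the 14 subunits of the standard 20S particle 2 rose and 2 fell, with a median linear change of -0.01. PSMB4 rose by 0.70 (SE 0.15, adjusted p = 0.00257 in limma), and PSMA7 changed by -1.10 (SE 0.14, adjusted p = 2.25e-05 in limma). Looked up after the values were seen, all 14 were lower at 3 h than at 0 h, as PSMB8 was. At 21 h PSMA1, PSMA5, PSMA6, PSMB1, PSMB2, PSMB4, PSMB5 and PSMB7 were above their 0 h signal, as PSMB8 was. PSMA2, PSMA3, PSMA4, PSMA7, PSMB3 and PSMB6 were below theirs.

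Of 24 regulators of class I genes 23 were tested, 2 rose and none fell by the linear fit, and their median change was 0.01. STAT2, part of the factor that type I interferon activates, read 9.72 at 0 h and 10.90 at 45 h and was above 0 h on all 15 treated arrays (1.07, SE 0.14, adjusted p = 2.96e-05 in limma). RFXANK, a subunit of the RFX complex that binds the X box of class I and class II promoters, rose by 0.65 (SE 0.23, adjusted p = 0.0483). NLRC5, the class I transactivator, was not detected on any array. IRF1, singled out after its values were seen, was below the untreated array on all 15 treated arrays, from 10.41 at 0 h to 9.06 by 6 h and 9.70 by 45 h (treated against untreated -0.95, SE 0.21, adjusted p = 0.00437 in limma). By the same comparison 3 regulators were lower, IRF1, SOCS1 and NFYC, and 2 were higher, STAT2 and IFNGR2. IFNGR2 was above the untreated array on all 15 treated arrays (1.01, SE 0.20, adjusted p = 0.00215 in limma).

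Of 35 interferon-induced genes 28 were tested, 6 rose and 4 fell, and their median change of 0.01 was near that of all probes. GBP2, an interferon-induced GTPase, went from 8.17 at 0 h to 10.35 by 21 h and 10.97 by 45 h, 6.99-fold higher at the end than at the start (2.29, SE 0.24, adjusted p = 3.53e-06 in limma). ISG20, an RNA exonuclease, peaked early as TAP1 did, from 9.36 at 0 h to 10.18 by 6 h and 8.66 by 45 h (-1.35, SE 0.23, adjusted p = 0.000318 in limma). IFIT1, MX1, MX2 and OAS2, which respond to type I interferon, were detected on fewer than 3 arrays. ISG15, IFI6 and OAS1, which respond to it too, were detected on all 16 arrays and are given after their values were seen. The linear change was -0.38 for ISG15 (SE 0.08, adjusted p = 0.00272 in limma) and -0.77 for IFI6 (SE 0.19, adjusted p = 0.00644). That of OAS1 missed the threshold (0.07, SE 0.03, adjusted p = 0.0777 in limma). Others of the list went the other way. IFITM2 (0.69, SE 0.23, adjusted p = 0.0352 in limma) and IFITM3 (0.60, SE 0.20, adjusted p = 0.0317 in limma), detected on all 16 arrays as well, rose. UBE2L6, DDX58 and IFI44L, detected on 4, 11 and 15 arrays, also rose, and TRIM22 fell. Of 18 class II genes only 4 were tested, and none had a linear trend. HLA-DMA and HLA-DOB were time-dependent, with log2 signals no higher than 8.31 and 8.20, and HLA-DRA and CIITA, the class II transactivator, were not detected.

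**Figure D4:**
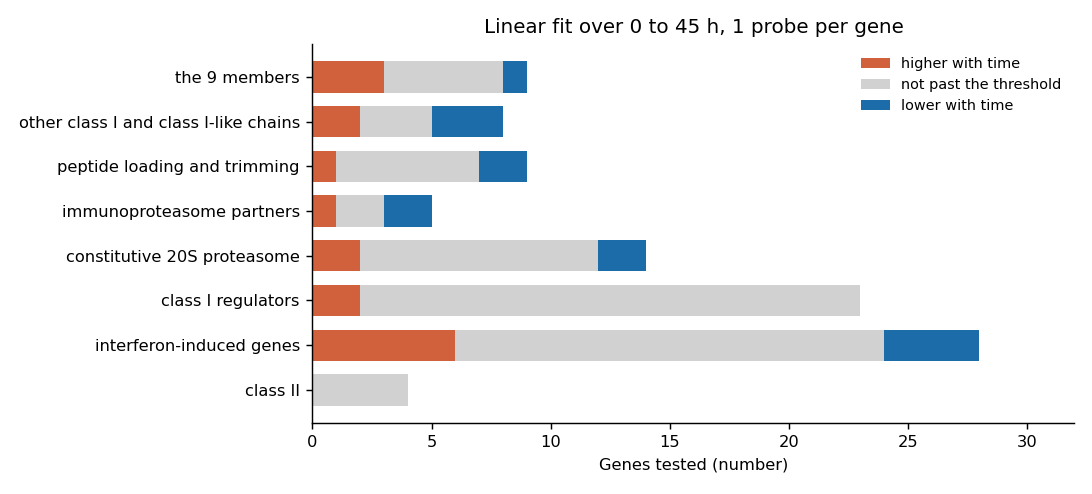
Number of genes tested (x axis, 1 probe per gene) in each of 8 gene groups, divided into those that rose, those that did not pass the threshold and those that fell over 0 to 45 h in the linear fit. Each group with more than 4 genes tested holds more genes that did not pass than genes that rose, and in the class II group none passed.

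The genes most like the members were sought by Pearson r with the mean standardised profile of the 8 members detected on all arrays, over 16 arrays. They were ZNF524, FXR1, YPEL3, CDIPT and APEG1, with r from 0.89 to 0.91, the highest among all tested probes outside the members. The members did not share a time course, and TAP1 and PSMB8 had an r of -0.853. Likeness to this mean is therefore not likeness to each member. Against single members, the closest were SLC25A28 for HLA-E (0.94), AMY1B for HLA-B (0.95), CRIP2 for B2M (0.93), LOC201175 for TAP1 (0.93) and DNAJC19 for PSMB8 (0.95). Likeness within the sets of arrays was uneven. From 0 to 21 h and from 24 to 45 h, r was 0.979 and 0.0698 for SLC25A28, 0.470 and 0.975 for AMY1B, 0.828 and 0.941 for CRIP2, 0.957 and 0.290 for LOC201175, and 0.963 and 0.784 for DNAJC19. ISG20 was the third closest to TAP1, with 0.92 over all arrays, 0.97 from 0 to 21 h and 0.20 from 24 to 45 h.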

How the data were processed

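RNA of the 16 cultures was measured on Illumina Ref-8 v2 arrays. The authors deposited an intensity per probe and array, not yet normalized, and with it a detection p-value against the array's negative control probes. The study's methods state quantile normalization. Background correction and quantile normalization used neqc of limma 3.58.1 under R 4.3.3. The moments of the control probes came from the detection p-values, and the offset was 16, which draws folds of dim probes toward 1. Signals are on the log2 scale. A probe was tested when at least 3 arrays had a detection p below 0.05 (12321 of 20589). The fits were a natural spline of time (4 df), a line (given as the change over 45 h), treated against untreated with a spline (3 df) among treated arrays, and time by set of arrays. P-values were adjusted over all tested probes (Benjamini-Hochberg, 0.05), and the procedure was tested on simulated data. A level of 1.7-fold from 0 h carries no test. The background is the median of 3343 probes at background level.

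The members and lists were chosen with earlier results of these data known. All members were named, and of each list the 2 genes with the largest linear change past the threshold (or past that of the spline), plus the 5 genes of closest profile. Of several probes, all are given for members and the brightest for others. Array symbols were kept, except where a current symbol replaces an older one. Alternatives covered background correction, scaling, the detection filter, the spline, the sets of arrays, the fold and each array left out. The MCF10A and breast cancer lines of the study were not analysed here. Of the genes the rule names and of the marker lists, some are not reported here.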

Additional observations from a re-analysis of the deposited data

Results flagged for a closer look

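Slopes up to 21 h and from 24 h differed for 4 member probes by the interaction of time with the set of arrays in limma. The difference, later minus earlier slope in log2 units per 21 h, was 0.75 for HLA-B and 0.51 for B2M, whose rises came after 33 h. It was -1.21 for the PSMB8 probe ILMN_12139, which rose up to 21 h, and -0.11 for the dim TAPBP probe ILMN_26682. Time and the set of arrays cannot be told apart in these differences.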

How the results depend on the processing

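No paired analysis was possible because every time point is a single array. The early difference of HLA-E from the untreated array and the late steps of HLA-B and B2M kept direction and call under every alternative run. The late comparison was placed where the steps had been seen, and the 0 h array cannot be left out of that of HLA-E. These runs are therefore no independent test of either. The count of members with a linear trend, 4, became 1 with the set of arrays as a block (HLA-B) and 2 within either set, and lay between 2 and 4 without 1 array (2 without 3 h or 36 h). It was 6 with median scaling over detected probes and 5 over all probes of the table. HLA-E lost its linear call without the 0, 3, 21, 24, 27, 30, 33, 36, 39 or 42 h array (0.22 to 0.54 over all arrays left out) and PSMB8 ILMN_11795 without the 3, 6, 9 or 36 h array (0.53 to 0.75). Members whose slope differed between sets numbered 4, then 2 with normexp from the signals alone, 2 with median scaling over all probes of the table, chosen after seeing the data, and 2 to 5 without 1 array (2 without 45 h). Under that scaling 5 members were 1.7-fold from 0 h in place of 2, and 1 in place of 3 differed from untreated. At 2-fold, 1 remained. The linear change of TAP1, -0.66, was -0.25 under it (adjusted p = 0.441 in limma). Of all probes, 1584 rose and 1420 fell in the main setting, 1637 and 2960 with median scaling over detected probes, whose median shift was -0.10, and 2409 and 585 over all probes.

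Linear changes of members with no trend turned sign as follows. All are slopes scaled to 45 h, also where only 1 set of arrays was fitted, and are thus larger than the slopes per 21 h given above. B2M was -0.27 from 0 to 21 h alone. HLA-C was 0.083 with median scaling over all probes and 0.10 from 24 to 45 h alone. TAPBP ILMN_26682 was -0.13 with median scaling and -0.031 from 24 to 45 h, TAPBP ILMN_23611 0.017 with the block and 0.038 from 24 to 45 h, and TAPBP ILMN_18872 -0.25 from 24 to 45 h. PSMB9 was 0.029 from 24 to 45 h and 0.00035 without the 0 h array (-0.032 to 0.00035 over arrays left out), PSMB8 ILMN_12139 was -0.30 from 24 to 45 h and TAP1, called in the whole course, 0.064 there. With the block, genes with a linear trend fell from 2 to 1 among regulators, 10 to 4 among interferon-induced genes, 3 to 1 in peptide loading, 3 to 0 among immunoproteasome partners, 4 to 2 in the 20S proteasome and 5 to 3 among other class I chains. With median scaling, trends went from 2 to 8 among regulators and from 0 to 2 in class II, and time-dependent genes from 3 to 1 among immunoproteasome partners (1 with the block) and from 7 to 4 in the 20S proteasome. Probes detected on all arrays left 7 of 13 time-dependent interferon-induced genes. The causes were not tested. PSMB9 and 2 TAPBP probes were limited by signal near background.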
